A study of Homo sapiens with 6 samples.

Results

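The genes described here are the zinc finger genes of the deposited table, taken as every gene whose symbol starts with ZNF, ZBTB, ZSCAN, ZKSCAN or ZFP and a digit. After antisense and pseudogene names were left out and each symbol was counted once, 29 genes of the 2257 deposited rows were members, namely 25 named ZNF, 3 named ZBTB and 1 named ZFP, with 0 named ZSCAN or ZKSCAN. The RefSeq gene table lists 605 protein-coding genes with such symbols, of which these 29 (4.79%) were in the deposited table and 576 were not analysed here. RNA-seq of poly(A) RNA was carried out in Caco-2 cells, an established line from a human colorectal adenocarcinoma that serves as a model of intestinal epithelium. The tested samples were 3 wild-type Caco-2 samples exposed to hypoxia and then reoxygenation (H/R), and the others were 3 wild-type control samples without that exposure. No label states how long the sequenced cells were reoxygenated, whether they were transfected or whether the samples came from separate cultures. The p-values thus cover the spread among these 6 samples, part of which can be technical.

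Zinc finger proteins of this kind hold short loops folded around a zinc ion by a pair of cysteines and a pair of histidines (C2H2 fingers), and tandem fingers read DNA bases. Many carry a KRAB domain, which recruits the corepressor TRIM28 and through it the histone methyltransferase SETDB1, and these proteins are known for silencing transposable elements. Others carry a BTB domain, which forms dimers and recruits corepressors, or a SCAN domain, which joins proteins to each other. Many human zinc finger genes lie in clusters on chromosome 19.

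Values are levels in FPKM (fragments per kilobase of transcript, relative to all mapped fragments of the library), and each change is the group mean of log2(FPKM + 1) in H/R less that in control, given with its standard error (SE) and the adjusted p-value of limma. The rows of the table look selected as changed, because the group means differed by a factor of 2 or more in 92.3% of the 2184 rows in which neither mean was 0. Counts and p-values are therefore to be read within that selection, and the depth of the samples is unknown. Of the 2034 rows tested, 937 rose, 1076 fell and only 21 did not pass the threshold on the adjusted p-value. If the rows were selected on these same samples, most were bound to pass. The adjusted p-values given below are then not separate evidence of a change, and they serve to describe spread among the samples. Of 14 epithelial markers, 5 were in the table. APOA1, FABP1 and ALPI fell, with means of 2801, 118 and 15.2 FPKM in H/R against 7378, 251 and 33.2 FPKM in control. KRT20 (1.54 FPKM in H/R, 0.323 FPKM in control) and SI (0.48 FPKM in H/R, 1.38 FPKM in control) were too low to test and differed in direction. Fibroblast markers were in the table for 2 of 6 genes, endothelial markers for 1 of 4 and immune markers for 1 of 5. The fibroblast marker PDGFRA rose (23.2 FPKM in H/R, 7.98 FPKM in control) and COL1A1 fell (7.08 FPKM in H/R, 15.6 FPKM in control). The endothelial marker ESAM rose (9.14 FPKM in H/R, 3.80 FPKM in control) and the immune marker CD14 fell (5.44 FPKM in H/R, 13.4 FPKM in control). All samples are labelled as the Caco-2 line, so these markers are not taken as a sign of other cell types, whose part was not tested. In such bulk samples, fewer cells of a type and less RNA per cell cannot be told apart.

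More of the zinc finger genes rose than fell after H/R. Of the 29 members, 26 had a mean of at least 1 FPKM over the 6 samples and were tested, of which 17 rose (65.4%), 8 fell (30.8%) and 1 did not pass (limma, adjusted p under 0.05). In the same fit, 46.1% of all 2034 rows tested rose and 52.9% fell. The median change was 0.85 over the members tested and -0.80 over all rows tested. Only 21 of all rows tested did not pass, so each median mostly follows the shares that rose and fell. The rises had a median of 0.95 and the falls of -1.07, next to 1.19 and -1.17 over all rows. Of the members tested, 16 had a mean under 5 FPKM, and the added 1 understates changes of low genes. With 0.1 added in its place, rises of at least 1 on the log2 scale numbered 16 members against 6. Over all rows they numbered 883 against 707. The H/R samples were all higher than the control samples in 14 members and all lower in 8, and the groups overlapped in 4, while over all rows tested 42.6% were higher and 52.0% lower without overlap. Over all rows tested the median change was -0.54 with each library scaled to the same total and -0.40 with median-of-ratios scaling, and over the members it was 1.09 and 1.19. All 17 rises passed under both scalings. The 8 falls all passed under the scaling to the total but only 5 of them under median-of-ratios scaling. Over all rows tested, 943 rose and 1003 fell under the scaling to the total. Under median-of-ratios scaling 948 rose and 846 fell, so falls were lost over the whole table as well. Both scalings raised H/R relative to control alike in every gene, by 0.35 and 0.52 on the log2 FPKM scale. They thus favour rises over falls, and they were computed from rows that look selected as changed. Neither outcome can therefore decide whether the calls hold.

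**Figure D1:**
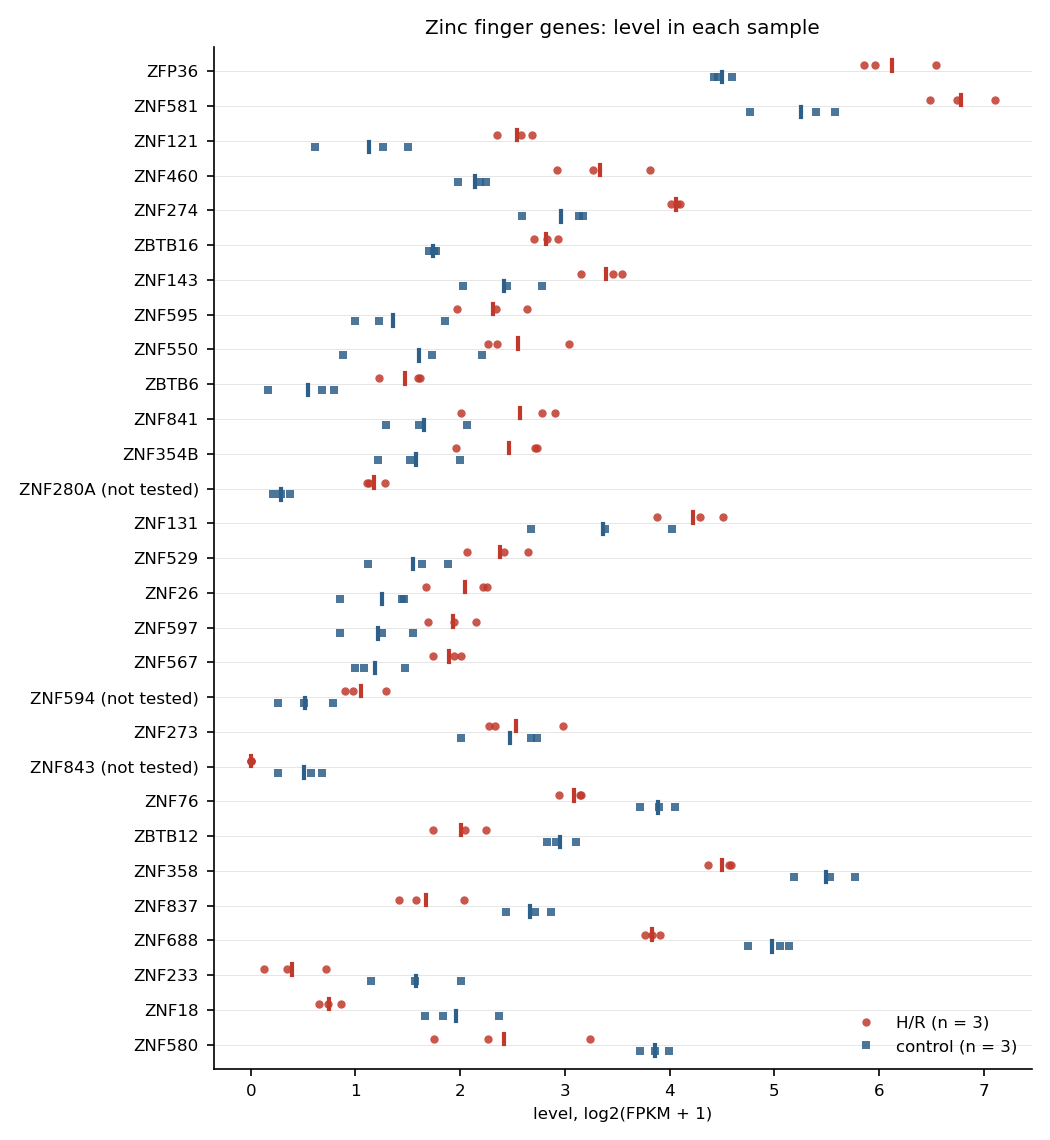
Level of each of the 29 zinc finger genes, as log2(FPKM + 1), in the 3 H/R samples (circles) and the 3 control samples (squares), with a bar at the mean of each group, ordered by the difference of the group means. ZFP36 and ZNF581 stand out by level as well as by change, and the H/R circles of 14 tested genes lie to the right of every control square.

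The largest rise belonged to ZFP36, which the symbol rule takes although its product, tristetraprolin, is no transcription factor. It binds AU-rich elements of messenger RNAs through zinc fingers of the CCCH type and brings on their decay. ZFP36 had 57.0, 92.1 and 61.4 FPKM in H/R replicates 1, 2 and 3, against 23.2, 21.1 and 20.5 FPKM in control replicates 1, 2 and 3. Every H/R sample was far above the control samples, and replicate 2 was the highest. The change was 1.62 ± 0.21 (SE, adjusted p = 1.36e-04), and the H/R mean was 3.25 times the control mean. Of 20 genes listed as partners of ZFP36 in mRNA decay, 2 were in the table and both rose, next to 46.1% of all rows tested. BTG1, which engages the CCR4-NOT deadenylase, averaged 114 ± 16.2 FPKM in H/R and 40.2 ± 7.98 FPKM in control (SD, n = 3 each). ZC3H12C, a CCCH zinc finger gene of the family of the RNase Regnase-1, averaged 4.30 ± 1.14 FPKM in H/R and 2.09 ± 0.599 FPKM in control.

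The member with the highest level was ZNF581, and it rose while the gene whose span overlaps its own fell. ZNF581 had 137, 88.7 and 106 FPKM in the 3 H/R samples, against 46.9, 41.2 and 26.3 FPKM in the 3 control samples, a change of 1.53 ± 0.25 (adjusted p = 3.42e-04). ZNF580 had 3.80, 2.37 and 8.43 FPKM in the 3 H/R samples, against 14.9, 13.5 and 12.2 FPKM in the 3 control samples, a change of -1.44 ± 0.34 (adjusted p = 0.0023). Both groups were apart in both genes, although H/R replicate 3 kept more ZNF580 than the other H/R samples. The level of ZNF581 was 35.9, 37.4 and 12.6 times that of ZNF580 in H/R replicates 1, 2 and 3, and 3.14, 3.05 and 2.16 times in control replicates 1, 2 and 3. In RefSeq, the spans of ZNF580 and ZNF581 overlap, and they were the only pair of members that neighbour each other without a protein-coding gene between them. How fragments of overlapping genes were assigned is not known, so the split between the genes is uncertain. The pair was singled out after its values were seen, and the difference between its changes was not tested.

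Another pair that went opposite ways was ZNF143 and ZNF76. ZNF143 (also named STAF) activates promoters of small nuclear RNA genes and of many protein-coding genes, and ZNF76 is its paralog, with 7 fingers counted in each. ZNF143 had 7.92, 10.02 and 10.7 FPKM in the 3 H/R samples, against 3.07, 4.46 and 5.85 FPKM in the 3 control samples (change 0.97 ± 0.24, adjusted p = 0.0034). ZNF76 had 7.89, 7.86 and 6.71 FPKM in the 3 H/R samples, against 15.6, 13.9 and 12.2 FPKM in the 3 control samples (change -0.81 ± 0.20, adjusted p = 0.0031). The groups did not overlap in either gene. ZNF143 was at 1.00, 1.27 and 1.59 times the level of ZNF76 in the 3 H/R samples and at 0.197, 0.320 and 0.482 times in the 3 control samples. The fall of ZNF76 did not pass under median-of-ratios scaling (-0.34, adjusted p = 0.18), while ZNF143 had a larger change there (1.42). This pair too was singled out after its values were seen.

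**Figure D2:**
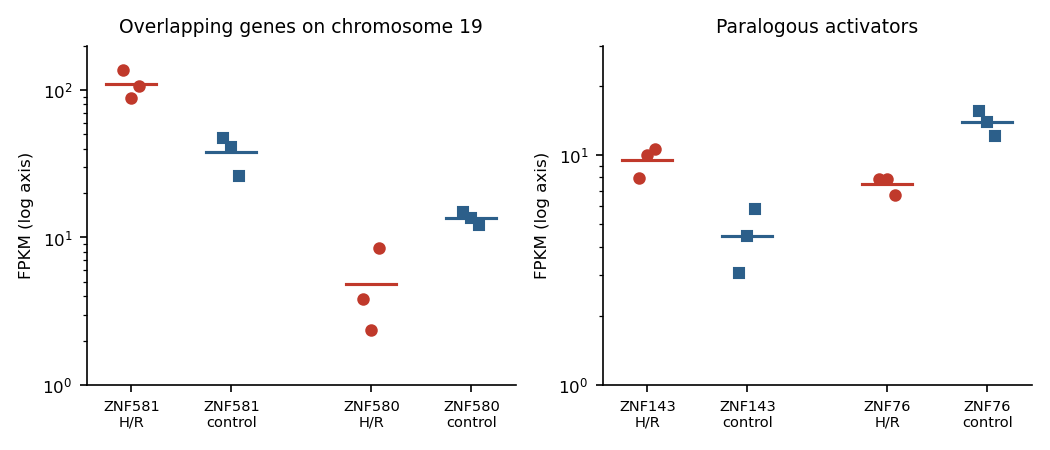
FPKM on a log axis in the 3 H/R samples (circles) and the 3 control samples (squares) for the overlapping genes ZNF581 and ZNF580 and for the paralogs ZNF143 and ZNF76, with a line at the mean. In each pair the first gene was higher in H/R (means of 110.4 and 9.54 FPKM) than in control (38.1 and 4.46 FPKM), and the second was lower (4.87 and 7.49 FPKM in H/R, 13.5 and 13.9 FPKM in control).

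Members that matched a pattern for the KRAB A box mostly rose. The pattern was found in the coding sequences of 11 of the 29 members, of which 9 rose, 1 fell and 1 did not pass, next to 46.1% of all rows that rose and 52.9% that fell. Of these 11 members, 9 had a transcript GC content under 50%, a range in which 70.3% of all rows rose, and 8 of the 9 rose. Among the 15 tested members without the pattern, 8 rose and 7 fell. Over all tested members with a GC content under 50%, with or without the pattern, 13 of 15 rose. The contrast by pattern thus runs together with GC content, and the part of each was not tested. The strict pattern misses diverged boxes, and ZNF18 and ZNF233, which fell and did not match it, are also known as KRAB genes, so these counts are not counts of all KRAB genes. ZNF274, a KRAB protein with a SCAN domain that brings SETDB1 to zinc finger gene clusters, had 15.8, 15.1 and 16.1 FPKM in the 3 H/R samples, against 5.02, 8.01 and 7.76 FPKM in the 3 control samples. The H/R samples were nearly alike and all above the control samples, with a change of 1.10 ± 0.22 (adjusted p = 0.0010). ZNF460 had 6.6, 8.6 and 13.0 FPKM in the 3 H/R samples, against 2.94, 3.57 and 3.75 FPKM in the 3 control samples, with a change of 1.19 ± 0.25 (adjusted p = 0.0014). H/R replicate 3 was the highest of these. The other members with the pattern that rose were low, with H/R means between 2.73 FPKM (ZNF567) and 5.13 FPKM (ZNF841) and changes between 0.71 (ZNF567) and 0.96 (ZNF595). ZNF595 had 2.91, 4.08 and 5.21 FPKM in the 3 H/R samples, against 0.99, 1.34 and 2.61 FPKM in the 3 control samples. In ZNF841 and ZNF354B the groups overlapped, since H/R replicate 1 (3.03 and 2.88 FPKM) was below control replicate 3 (3.19 and 2.99 FPKM). KRAB genes share long stretches of like sequence, so levels of close relatives can be uncertain where fragments were split between them.

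Some of these rises rested on how the spread was estimated or on a library. With an ordinary linear model, the rises of ZNF26, ZNF354B, ZNF550, ZNF841 and ZNF131 did not pass (adjusted p between 0.050 and 0.12). With the replicate number as a block in limma, all of these genes passed, with adjusted p between 8.8e-04 (ZNF841) and 0.0016 (ZNF131). ZNF550 had 3.81, 4.10 and 7.23 FPKM in the 3 H/R samples, against 0.84, 2.31 and 3.63 FPKM in the 3 control samples. Its change of 0.95 ± 0.34 (adjusted p = 0.021) became 0.70 without H/R replicate 3 (adjusted p = 0.082) and 0.58 without control replicate 1 (adjusted p = 0.078). ZNF529 averaged 4.26 ± 1.05 FPKM in H/R and 2.00 ± 0.766 FPKM in control, and ZNF26 averaged 3.2 ± 0.877 FPKM in H/R and 1.43 ± 0.543 FPKM in control (SD, n = 3 each). Both were higher in every H/R sample than in any control sample.

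The member with the KRAB pattern that fell was ZNF688, which had 13.2, 12.6 and 14.0 FPKM in the 3 H/R samples, against 32.2, 34.2 and 25.9 FPKM in the 3 control samples. Its change was -1.15 ± 0.19 (adjusted p = 3.87e-04), with a ratio of mean FPKM of 0.432, and the H/R samples were close together. ZNF273 was the tested member that did not pass. It had 3.83, 4.02 and 6.92 FPKM in the 3 H/R samples, against 3.02, 5.63 and 5.41 FPKM in the 3 control samples, and the groups overlapped. Its change was 0.06, with a 95% interval between -0.57 and 0.68, so changes of that size in either direction are not excluded. Of 32 corepressor genes listed for KRAB proteins, MORC3 was the 1 gene in the table. MORC3, an ATPase gene for silencing of transposable elements, had 5.52, 8.92 and 9.57 FPKM in the 3 H/R samples, against 2.87, 4.16 and 5.95 FPKM in the 3 control samples, and it rose by 0.77 (adjusted p = 0.022) although the groups overlapped. TRIM28 and SETDB1 were not analysed here.

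Of the 4 members with a BTB domain by current or older symbol, 3 rose and 1 fell. Over all rows tested, 46.1% rose and 52.9% fell. ZBTB16 encodes PLZF, a repressor that works in differentiation and in stem cells. It had 6.62, 6.11 and 5.53 FPKM in the 3 H/R samples, against 2.41, 2.36 and 2.26 FPKM in the 3 control samples. The samples of each group were close together, with a change of 1.08 ± 0.19 (adjusted p = 4.55e-04). ZBTB6 had 1.33, 2.06 and 2.02 FPKM in the 3 H/R samples, against 0.73, 0.60 and 0.12 FPKM in the 3 control samples (change 0.93 ± 0.22, adjusted p = 0.0022), so it was low in both groups and lowest in control replicate 3. ZNF131 had 13.7, 18.6 and 21.7 FPKM in the 3 H/R samples, against 5.37, 9.44 and 15.2 FPKM in the 3 control samples. The groups overlapped, and its change of 0.87 ± 0.33 (adjusted p = 0.026) did not pass without H/R replicate 2 (0.83, adjusted p = 0.069), H/R replicate 3 (0.73, adjusted p = 0.086), control replicate 1 (0.52, adjusted p = 0.089) or control replicate 2 (0.88, adjusted p = 0.050). ZBTB12, listed as a numbered further copy of its symbol, had 3.13, 3.74 and 2.33 FPKM in the 3 H/R samples, against 7.62, 6.12 and 6.52 FPKM in the 3 control samples (change -0.94 ± 0.21, adjusted p = 0.0019). That fall just missed the threshold under median-of-ratios scaling (-0.52, adjusted p = 0.053). While 46.1% of all rows tested rose, 2 of 12 corepressor and partner genes of BTB proteins were in the table and both rose. These were TBL1XR1, a subunit of the NCOR complex (26.4 ± 11.3 FPKM in H/R and 11.98 ± 4.14 FPKM in control), and RCOR1, which encodes CoREST (22.9 ± 0.966 FPKM in H/R and 11.3 ± 2.88 FPKM in control). The groups overlapped in TBL1XR1.

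The remaining rises were ZNF121 and ZNF597. ZNF121, in which 9 fingers were counted and no KRAB pattern was found, had 4.1, 5.0 and 5.44 FPKM in the 3 H/R samples, against 0.53, 1.4 and 1.84 FPKM in the 3 control samples. The H/R samples were all above the control samples, and control replicate 1 was the lowest. Its change was 1.41 ± 0.25 (adjusted p = 5.27e-04), the largest among members with a mean under 5 FPKM. ZNF597, an imprinted gene, averaged 2.84 ± 0.605 FPKM in H/R and 1.37 ± 0.560 FPKM in control, with a change of 0.71 (adjusted p = 0.012).

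Besides ZNF580, ZNF688, ZNF76 and ZBTB12, the falls were ZNF358, ZNF837, ZNF18 and ZNF233. ZNF358 had the highest level of the falling members, with 23.0, 22.7 and 19.6 FPKM in the 3 H/R samples, against 53.7, 45.1 and 35.4 FPKM in the 3 control samples. Its groups were well apart (change -0.99 ± 0.20, adjusted p = 0.0011), but the fall did not pass under median-of-ratios scaling (-0.49, adjusted p = 0.062). ZNF837 averaged 2.25 ± 0.754 FPKM in H/R and 5.41 ± 0.952 FPKM in control. ZNF18, a SCAN protein by its older symbols, had 0.82, 0.57 and 0.67 FPKM in the 3 H/R samples, against 2.17, 4.18 and 2.58 FPKM in the 3 control samples (change -1.21 ± 0.22, adjusted p = 5.55e-04). ZNF233 had 0.09, 0.65 and 0.27 FPKM in the 3 H/R samples, against 1.21, 1.96 and 3.03 FPKM in the 3 control samples. That is a ratio of mean FPKM of 0.163, the smallest of the tested members, although the change on the log2(FPKM + 1) scale was -1.18, because the added 1 understates changes of low genes.

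The 3 members under the minimum of 1 FPKM were not tested. ZNF280A, which lies in the immunoglobulin lambda locus, had 1.16, 1.19 and 1.43 FPKM in the 3 H/R samples, against 0.30, 0.16 and 0.22 FPKM in the 3 control samples. ZNF594 had 0.86, 0.97 and 1.45 FPKM in the 3 H/R samples, against 0.20, 0.42 and 0.72 FPKM in the 3 control samples. ZNF843 was listed at 0 in every H/R sample, against 0.20, 0.49 and 0.60 FPKM in the 3 control samples. The groups did not overlap in any of these genes, next to 94.6% of all rows tested that did not overlap. With no minimum, 19 of the 29 members rose and 9 fell. Over all 2206 rows, that fit gave 1009 rises and 1164 falls.

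**Figure D3:**
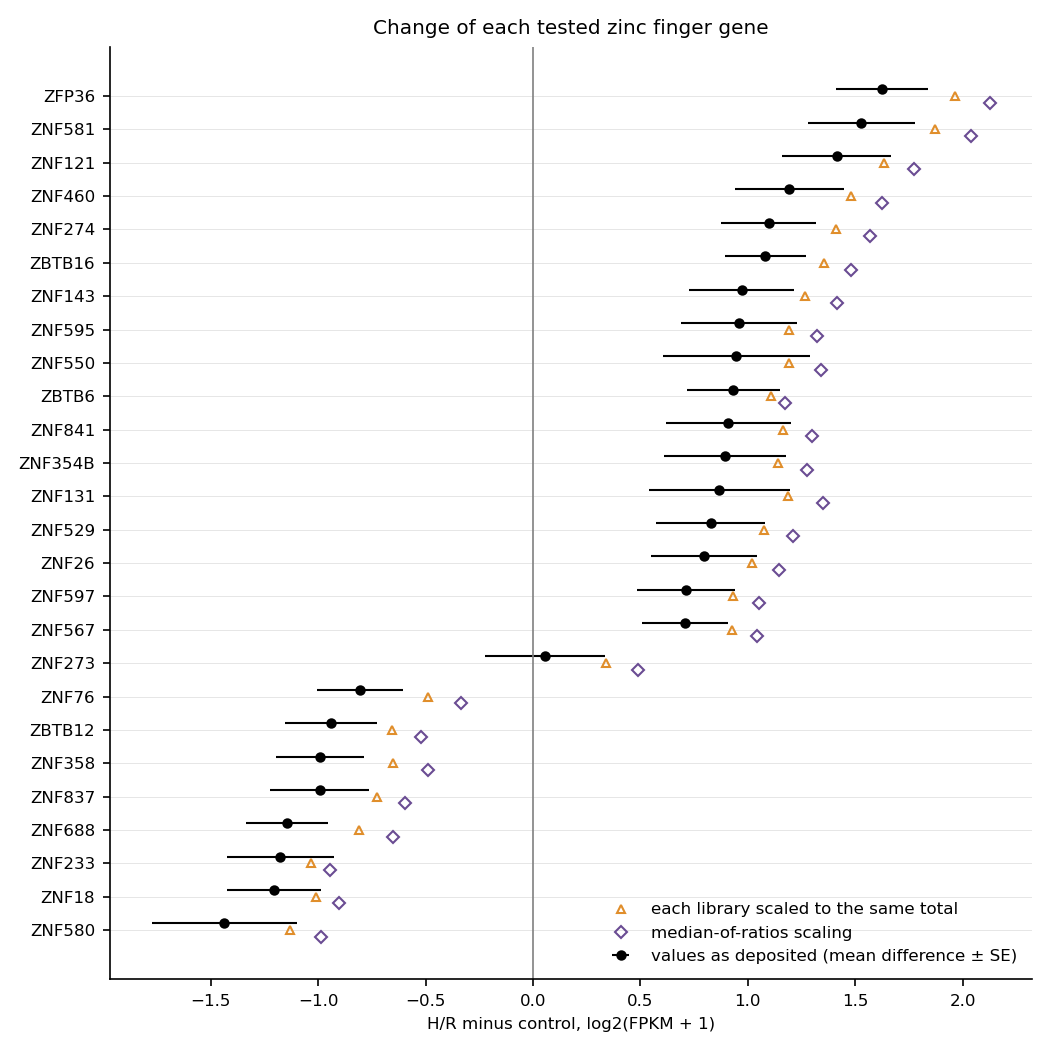
Change of each of the 26 tested zinc finger genes, as the H/R mean less the control mean of log2(FPKM + 1), with its SE for the values as deposited (filled circles) and without it for libraries scaled to the same total (triangles) and for median-of-ratios scaling (diamonds). Both scalings move each gene to the right, and ZFP36 stays highest (1.62 as deposited) and ZNF580 lowest (-1.44).

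The rising members had a lower median GC content than the falling members, and their proteins had a higher median number of fingers. Transcripts of the members that rose had a median GC content of 44.5%, between 34.9% (ZBTB6) and 62.6% (ZFP36), and those of the members that fell had 61.8%, between 45.5% (ZNF233) and 70.5% (ZNF837). The same medians over all rows were 47.6% for rises and 57.1% for falls. Of the 15 tested members with a GC content under 50%, 13 rose (86.7%), next to 70.3% of all 751 rows in that range. Of the 11 members at 50% or more, 4 rose (36.4%), next to 30% of all 1209 rows there. Those 4 were ZFP36, ZNF581, ZBTB16 and ZNF274. The proteins of the rising members had a median of 9 C2H2 fingers (between 0 in ZFP36 and 20 in ZNF841), and those of the falling members a median of 6 (between 2 in ZNF688 and 9 in ZNF358). Rising members without the KRAB pattern had between 0 (ZFP36) and 9 fingers (ZBTB16 and ZNF121), much like the falling members. The linker TGEKP, which joins fingers that grip DNA in tandem, was present in 13 of the 17 rising and in 4 of the 8 falling members. These features were compared without a test, since the genes are not independent of each other. Fingers and linkers were not counted in genes other than the members.

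**Figure D4:**
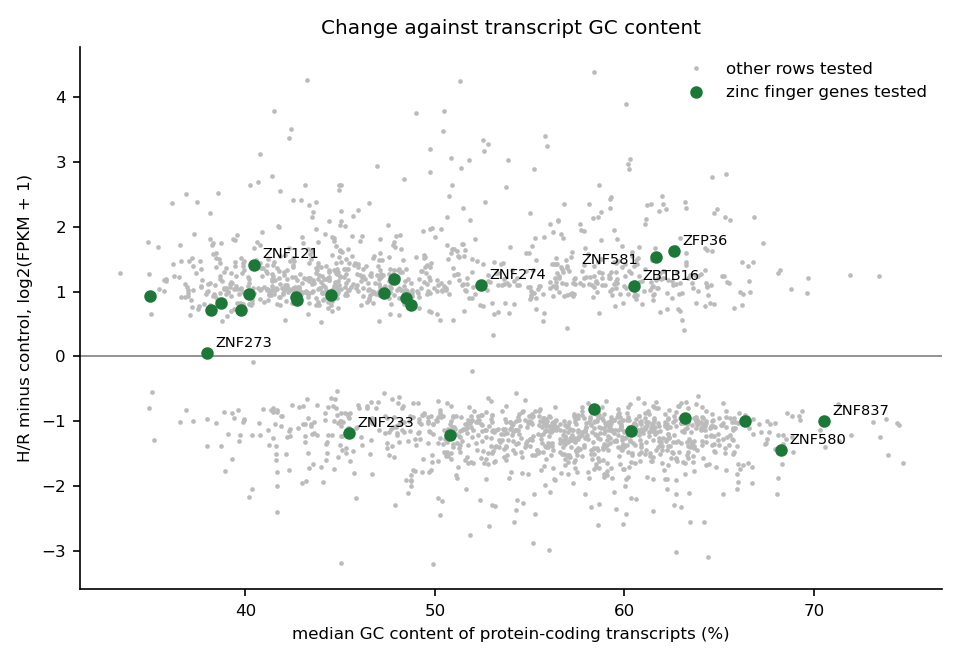
Change of each gene, as the H/R mean less the control mean of log2(FPKM + 1), against the median GC content of its protein-coding transcripts, for the 26 tested zinc finger genes (large points) and the other tested rows (small points). The zinc finger genes that rose cluster under 50% GC (13 of 17), apart from ZFP36, ZNF581, ZBTB16 and ZNF274, and those that fell lie mostly at 50% or more (7 of 8).

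GC content also separated samples of the same group. The rising members were on average 0.24 lower in H/R replicate 1 and 0.18 higher in H/R replicate 3 than the H/R mean, and 0.27 lower in control replicate 1 and 0.21 higher in control replicate 3 than the control mean, all on the log2 scale. Over all rows, levels changed by 0.16 and -0.12 per 10 points of GC in H/R replicates 1 and 3 relative to the H/R mean, and by 0.26 and -0.26 in control replicates 1 and 3 relative to the control mean. Without both replicates numbered 1, the same counts of 17 rises and 8 falls were obtained, and likewise without both replicates numbered 3. Over all rows tested, the first of these fits gave 936 rises and 1075 falls, and the second gave 928 and 1052. The part of GC content in the difference between H/R and control was not tested.

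By position, 13 of the 29 members (44.8%) were on chromosome 19, next to 43.6% of the 605 family genes in RefSeq. Of these 13, 9 rose and 4 fell, and of the 13 tested members elsewhere in the genome 8 rose and 4 fell. Over all rows tested, 46.1% rose and 52.9% fell.

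Most promoter windows of the rising members held the short sequence CGGAAG. Windows of 300 bases (250 before and 50 after the start site) from RefSeq on GRCh38.p14 were matched by symbol for 24 of the 29 members, without ZBTB16, ZBTB6, ZNF233, ZNF76 and ZNF843. They were searched on both strands for 6 motifs, whose matches may share letters. CGGAAG, the core of the sequence bound by ETS factors such as GABPA, was present in 14 of 15 windows of rising members (93.3%) and in 3 of 6 of falling members (50%). It was present in 25.6% of the 15843 windows of protein-coding genes and in 49.2% of the 486 windows of family genes outside the deposited table. In the other genes of the table, it was in 24.8% of the windows of genes that rose and in 25.1% of those of genes that fell. The 5 windows shown have the motif, on either strand (CGGAAG or CTTCCG), in capitals. They were chosen after the values were seen, as 3 of the larger rises and ZNF143, each with a match, and ZNF358, a falling member without one. The windows are chr19:9584455-9584754 on the minus strand for ZNF121, chr19:57279732-57280031 on the plus strand for ZNF460, chr19:58182811-58183110 on the plus strand for ZNF274, chr11:9460762-9461061 on the plus strand for ZNF143 and chr19:7515853-7516152 on the plus strand for ZNF358.
ZNF121: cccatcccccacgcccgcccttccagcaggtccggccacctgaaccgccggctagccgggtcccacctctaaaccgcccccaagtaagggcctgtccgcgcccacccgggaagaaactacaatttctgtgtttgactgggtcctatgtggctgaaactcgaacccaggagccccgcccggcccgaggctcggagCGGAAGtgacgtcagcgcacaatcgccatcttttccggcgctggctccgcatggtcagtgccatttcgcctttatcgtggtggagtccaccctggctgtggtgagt
ZNF460: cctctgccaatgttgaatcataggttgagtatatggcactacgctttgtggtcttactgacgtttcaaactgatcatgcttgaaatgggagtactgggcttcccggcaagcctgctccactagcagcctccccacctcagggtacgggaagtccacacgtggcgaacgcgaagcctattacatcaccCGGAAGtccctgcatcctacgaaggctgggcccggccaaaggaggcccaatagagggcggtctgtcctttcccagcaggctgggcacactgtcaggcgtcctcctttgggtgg
ZNF274: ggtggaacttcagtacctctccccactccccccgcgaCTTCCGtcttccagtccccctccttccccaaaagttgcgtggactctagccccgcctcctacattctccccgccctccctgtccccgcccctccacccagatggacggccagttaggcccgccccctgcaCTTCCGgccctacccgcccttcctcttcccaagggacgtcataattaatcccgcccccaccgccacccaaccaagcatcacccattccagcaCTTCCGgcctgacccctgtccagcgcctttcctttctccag
ZNF143: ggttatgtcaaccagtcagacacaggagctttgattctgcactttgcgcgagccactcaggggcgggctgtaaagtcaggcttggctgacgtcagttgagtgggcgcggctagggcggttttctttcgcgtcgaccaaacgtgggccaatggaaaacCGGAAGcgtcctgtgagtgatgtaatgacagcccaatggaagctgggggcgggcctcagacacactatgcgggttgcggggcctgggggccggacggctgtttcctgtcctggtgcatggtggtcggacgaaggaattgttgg
ZNF358: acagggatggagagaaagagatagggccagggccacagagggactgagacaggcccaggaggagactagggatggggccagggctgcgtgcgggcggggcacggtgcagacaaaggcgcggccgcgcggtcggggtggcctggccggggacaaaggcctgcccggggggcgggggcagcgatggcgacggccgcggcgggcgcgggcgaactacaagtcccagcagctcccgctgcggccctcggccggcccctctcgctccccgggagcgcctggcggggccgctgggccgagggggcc

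The ZNF274 window holds 3 matches and those of ZNF121, ZNF460 and ZNF143 hold 1 each. The cores bound by the hypoxia-inducible factors, ACGTG and GCGTG, were in 25% and 66.7% of the 24 windows of members, next to 23.0% and 50.6% of those of family genes outside the table and 23.7% and 44.1% of those of protein-coding genes. GCGTG was in 12 of the 15 windows of rising members and in 4 of the 6 of falling members, so it too was present in most windows of rising members. In the other genes of the table, it was in 47.8% of the windows of genes that rose and in 46.7% of those of genes that fell. TGACG, part of the site of ATF and CREB factors, was in 45.8% of the windows of members, 33.3% of those of family genes outside the table and 29.5% of those of protein-coding genes. It was in 8 of the 15 windows of rising members and 2 of the 6 of falling members. In other genes of the table that rose and fell, its shares were 35.6% and 27.0%. TGANTCA, the AP-1 site, was in 4.2% of the windows of members, 5.6% of those of family genes outside the table and 5.8% of those of protein-coding genes. ACTACAA, part of the sequence bound by ZNF143, was in 8.3%, 5.3% and 3.1%, the members being ZNF121 and ZNF358. A match describes the letters of a window and does not show that a factor binds there.

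**Figure D5:**
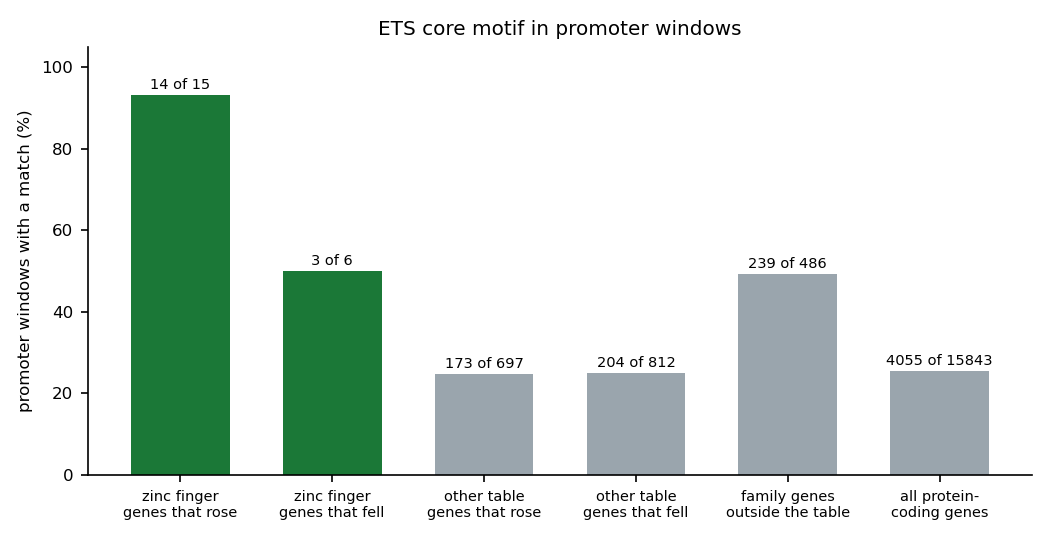
Share of promoter windows of 300 bases that hold the ETS core motif on either strand, in percent, with the number of windows above each bar. The share was 93.3% in zinc finger genes that rose and 50% in those that fell, against 49.2% in family genes outside the table and 25.6% over protein-coding genes.

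Zinc finger transcription factor genes with other names also mostly rose. Of 135 listed, 18 were in the table and 17 were tested, of which 15 rose and 2 fell, while 46.1% of all rows tested rose and 52.9% fell. Their median change was 1.10, next to -0.80 over all rows. The leading rises were in Krüppel-like factor genes, which act in epithelial growth and differentiation. KLF4 averaged 14.3 ± 0.812 FPKM in H/R and 2.45 ± 0.311 FPKM in control, KLF5 averaged 166 ± 27.6 FPKM in H/R and 45.6 ± 8.83 FPKM in control, and KLF6 averaged 60.7 ± 25 FPKM in H/R and 11.5 ± 2.73 FPKM in control (SD, n = 3 each). Their changes were 2.15, 1.84 and 2.25 (adjusted p between 2.28e-05 and 1.32e-04). SALL2 and SP8 fell, by 0.78 and 0.84 on the log2 scale.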

How the data were processed

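Poly(A) RNA of 3 H/R and 3 control samples of Caco-2 cells was sequenced as paired-end reads. In the 1 table that the authors deposited, each gene has a log2 value in each sample, under FPKM column names. After the logarithm was undone and 1 subtracted, 100% of the values were multiples of 0.01 FPKM (tolerance 1e-05 FPKM), which identifies the unit as log2(FPKM + 1). The aligner, the counting method and any use of strand were not given in the sources used here. Mouse builds are named in the submitters' processing notes although the identifiers are human, so gene coordinates of the table are not used.

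Copies of a symbol with identical values were counted once (51 rows removed, 2206 left). The 2034 rows with a mean of at least 1 FPKM were tested two-sided on log2(FPKM + 1) with limma version 3.58.1 in R version 4.3.3, using group as the single factor and a trend of variance with mean level, and p-values were adjusted by Benjamini-Hochberg over all rows tested (threshold of 0.05). GC content is the median over protein-coding transcripts of GENCODE release 29. Fingers (C, 2 to 4 residues, C, 12 residues, H, 3 to 5 residues, H), linkers and the KRAB A box were counted in the longest translated GENCODE coding sequence of each member, in place of the RefSeq proteins planned. The KRAB pattern (EW, any 2, L, any 3, Q, any 2, L, then Y or F) can miss diverged boxes. The members and the 4 lists of related genes were chosen with earlier results of these data known. Named genes follow a rule that takes the largest changes, the highest levels, each ZBTB and ZFP member, tested members that did not pass and up to 3 genes per direction and list. The other members are given to account for all 29. Same-numbered samples were checked for pairing.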

Additional observations from a re-analysis of the deposited data

How the results depend on the processing

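Of the 25 members that passed, 17 did so under each of the 15 alternative fits (pseudocount of 0.1, no minimum, replicate block, both scalings, no trend, ordinary linear model, each library left out and both replicates of a number left out), and no member that passed changed direction in them. The count of falls was 5 under median-of-ratios scaling, against 8, with ZNF76, ZNF358 and ZBTB12 lost. Over the whole table, that scaling gave 846 falls against 1076. That scaling raised H/R relative to control alike in every gene, by 0.52 on the log2 FPKM scale. Whether it suits rows that look selected as changed was not tested. The ordinary linear model gave 12 rises against 17. Over the whole table it gave 787 rises against 937 and 1011 falls against 1076. With 1 library left out, rises of members were between 15 and 17 and falls were 8. Over the whole table, rises were then between 880 and 942 and falls between 1061 and 1075. With the replicate number as a block, 17 members rose and 8 fell, and 946 rows rose and 1082 fell over the whole table. The block changed the call of no member. The deviations of same-numbered samples from their group means correlated at 0.50, 0.07 and 0.52 for numbers 1, 2 and 3. The correlation was -0.50 between H/R replicate 1 and control replicate 3, and -0.49 between H/R replicate 3 and control replicate 1. Numbers 1 and 3 thus went together across the groups, while H/R replicate 2 correlated best with control replicate 3 (0.10). No label says what the numbers mark, so the main fit has no replicate term, and the source of this likeness was not tested.

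ZNF273, which did not pass, had changes between -0.18 and 0.18 with 1 library left out, a change of -0.0481 without both replicates numbered 1 and a change of -0.0682 without both replicates numbered 3. Members with at least 2 fingers gave 16 rises and 8 falls, and every row of a member symbol gave 17 and 8. Depth is unknown, so no counting error could be given for the low members.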

Other observations

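The names that the rule left out were measured as well. ZNF816-ZNF321P, a readthrough from a zinc finger gene into a pseudogene, had 3.70, 3.04 and 4.30 FPKM in the 3 H/R samples, against 0.72, 0.71 and 1.20 FPKM in the 3 control samples, a ratio of mean FPKM of 4.20. ZBTB8OS, a gene on the opposite strand of ZBTB8 genes that encodes a subunit of the tRNA ligase machinery, had 16.5, 7.55 and 8.94 FPKM in the 3 H/R samples, against 18.8, 22.1 and 20.6 FPKM in the 3 control samples. With both names counted, an alternative chosen after seeing the data, 18 rose and 9 fell, next to 46.1% and 52.9% of all rows tested.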
